A study of Gallus gallus with 4 samples.

Results

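The secreted Wnt inhibitors examined here were 6 genes, WIF1, APCDD1, SFRP1, SFRP2, FRZB and DKK3, in cultured chick neural retina. They were taken by name, as all probes whose array annotation is a RefSeq transcript of one of these genes. This gave 18 of the 43603 probes on the array and 6 of the 5382 genes that could be named. All 6 genes passed the filter on dim signal, as did 17 of their 18 probes. Neural retinas of chick embryos at embryonic day 8 (stage 33) were dissociated with trypsin and plated in medium with fetal bovine serum. The DAPT group received 10 µM DAPT, an inhibitor of the γ-secretase that Notch receptors need for signalling, from day 2 of culture, and the DMSO group an equal volume of the solvent. Medium and agent were renewed every 2 days in both groups, and total RNA of the whole culture was extracted on day 12. There were 2 samples per group, called DMSO 1, DMSO 2, DAPT 1 and DAPT 2, each on its own 1-colour array.

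Wnt proteins are secreted lipid-modified signals that bind Frizzled receptors together with LRP co-receptors and so stabilise β-catenin, which then activates target genes with TCF/LEF factors. Secreted frizzled-related proteins (SFRP1, SFRP2 and FRZB, also called SFRP3) carry a frizzled-like domain that binds Wnts, WIF1 binds Wnts through a domain of its own, and APCDD1 is a membrane-anchored protein that binds both Wnts and LRP. DKK3 is the divergent member of the Dickkopf family, whose founding member binds and blocks LRP co-receptors. That action is stated here for the founding member alone, and not for DKK3. The name secreted Wnt inhibitors is thus a label of the group, also for DKK3 and for the membrane-anchored APCDD1. In the vertebrate eye, Wnt signalling is best known at the rim of the optic cup, where the ciliary margin forms.

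Of the 6 genes, 3 fell in DAPT (WIF1, SFRP2 and APCDD1), 2 rose (DKK3 and FRZB) and SFRP1 did not pass the test on its brightest probe. A gene was called where the adjusted p of limma was under 0.05. This method fits each feature by itself and draws its variance towards that of all features. Over all 32291 features, that is named genes and single unnamed probes, 13.1% were called lower in DAPT, 12.4% higher and 25.5% in either direction, and among the 5110 named genes tested 28.2% were called. The median log2 difference, DAPT minus DMSO, was -0.23 over the 6 genes and 0.062 over all features, and the 6 genes ranged from -2.84 to 1.07. The DMSO and DAPT arrays overlapped for none of the 6 genes, where 65.6% of all features did not overlap either.

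Arrays of replicate 1 shared a slide and a scan, and those of replicate 2 shared the other, so each gene could also be compared within a slide. Between 85.7% and 89.3% of spots were well above background, no spot was saturated, and 2 arrays per group limit the precision. Whether the 2 samples of a group stem from different embryos or platings is not given in the labels, so the spread behind the p-values may be a technical one. In RNA of a whole culture, fewer cells of a type and less RNA per cell cannot be told apart. Among lists of cell type markers, 15 of 16 tested fibroblast genes fell, with log2 differences of -6.29 for ELN (elastin) and -4.29 for COL6A3 (a collagen chain). Their summed linear signal, in units of each array's 75th percentile, went from 427 and 535 on the DMSO arrays to 95.6 and 98.9 in DAPT. Of 18 lens genes, 16 rose (BFSP1 by 9.21 and CRYBB1 by 7.99) and their sum went from 24.8 and 19.8 to 666 and 703. All 10 tested photoreceptor genes fell (OPN1MSW at -3.19 and ARR3 at -1.68), with sums of 32.4 and 28.9 against 11.7 and 13.2 in DAPT. The part of these shifts in the values of the 6 Wnt inhibitors was not tested.

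WIF1, which binds Wnt proteins outside the cell, differed most between the groups among the 6 genes. Its brightest probe, A_87_P106448, had a processed signal of 10281 in DMSO 1, 5185 in DMSO 2, 992 in DAPT 1 and 916 in DAPT 2, before scaling of the arrays. Both DMSO arrays were far above both DAPT arrays, and the DMSO arrays stood apart from each other. On the normalised scale, log2 signal relative to each array's 75th percentile, WIF1 was at 2.24 ± 0.62 in DMSO and -0.60 ± 0.032 in DAPT (SD, n = 2 each). It fell by 2.84 ± 0.31 (SE) in limma, with a 95% confidence interval of -3.68 to -2.00 and an adjusted p of 0.00682, so that the signal was 7.16-fold higher in DMSO. The gap of 0.88 between the DMSO arrays was larger than that of 96.7% of features. Within slides the difference was -3.26 on slide 1 and -2.42 on slide 2, of one sign because the groups did not overlap. With the slide as a block the adjusted p was 0.00303. The other WIF1 probe, A_87_P012040, read 9478, 4626, 879 and 714 in the same order of arrays and fell by 2.97 ± 0.34 (adjusted p = 0.0064 over all probes). The probes thus gave like differences, and the spread in DMSO was shared by both.

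SFRP2, a frizzled-related protein that binds Wnts, was measured by 1 probe, A_87_P059436. Its processed signal was 1897 in DMSO 1, 1828 in DMSO 2, 475 in DAPT 1 and 423 in DAPT 2. Here the arrays of a group lay close together, and DMSO 2 was not below DMSO 1 after scaling, unlike in the other 5 genes. The gene fell by 1.96 ± 0.10 on the log2 scale (interval -2.24 to -1.68, adjusted p = 0.0016), a signal 3.89-fold higher in DMSO. Within slides the difference was -1.88 and -2.03.

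APCDD1, the membrane-anchored inhibitor, was lower in DAPT by less. The signal of its brightest probe, A_87_P103933, was 765 in DMSO 1, 481 in DMSO 2, 268 in DAPT 1 and 264 in DAPT 2. The DAPT arrays were nearly equal, and the DMSO arrays differed by a log2 gap of 0.57. APCDD1 fell by 1.09 ± 0.22 (interval -1.67 to -0.51, adjusted p = 0.0284), a signal 2.13-fold higher in DMSO, with -1.40 on slide 1 and -0.78 on slide 2 and an adjusted p of 0.0145 with the slide as a block. This call ended without DAPT replicate 1 (adjusted p = 0.104) and without DAPT replicate 2 (adjusted p = 0.0961).

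Of the other 4 probes of APCDD1, 3 could be tested as features of their own, among which 26.4% of all 38422 probes were called. A_87_P206683 fell by 1.25 ± 0.21 (adjusted p = 0.0175) and A_87_P127073 by 1.01 ± 0.16 (adjusted p = 0.0163), whereas A_87_P038052 was at -1.13 ± 0.29 with an adjusted p of 0.0523. With normexp background correction the difference of A_87_P206683 was -0.53. A_87_P127073 was dim, with signals of 15.0, 11.6, 6.94 and 5.38, and its normexp difference was -0.093. The probe A_87_P220603 was well above background on DMSO 1 alone, with signals of 11.6, 5.33, 2.54 and 1.03, and was left out by the filter. All 5 probes read lower on each DAPT array than on either DMSO array. For A_87_P127073 on DAPT 2, and for A_87_P220603 on all arrays but DMSO 1, the reading was not well above background.

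**Figure D1:**
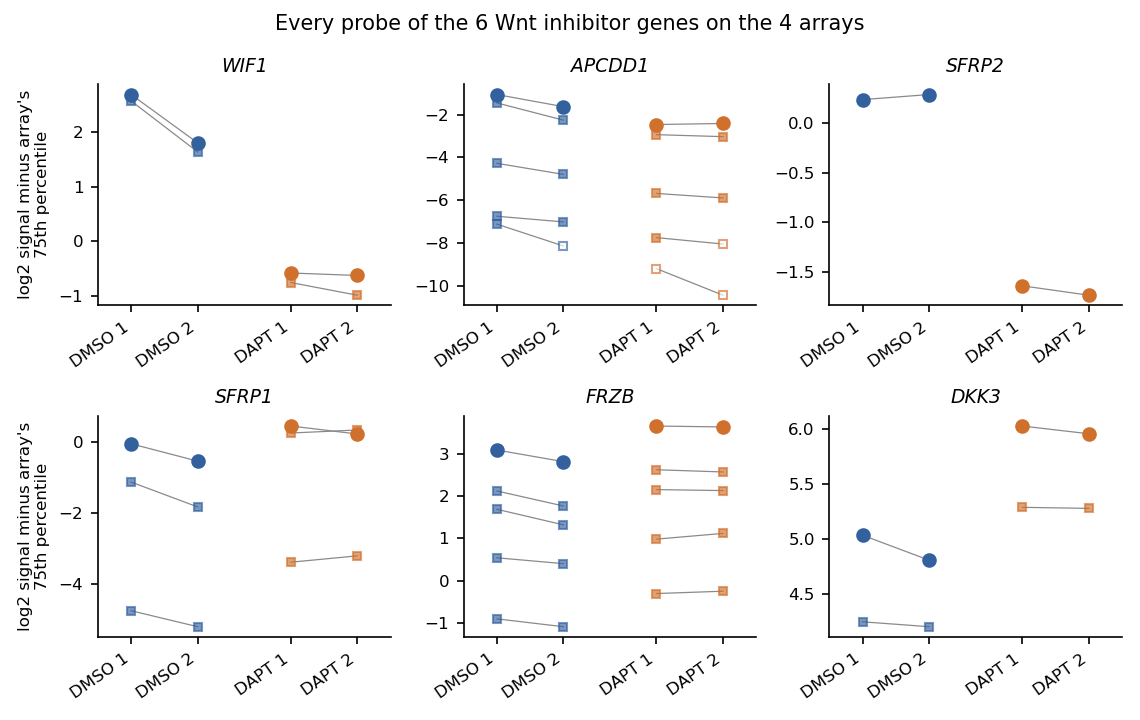
Normalised log2 signal (y axis, log2 signal minus the array's 75th percentile) of each probe on the 4 arrays (x axis), with one panel per gene, blue for DMSO and orange for DAPT. Circles mark the brightest probe of a gene, squares its other probes, open squares arrays on which a probe was not well above background, and lines join the arrays of a group. WIF1, APCDD1 and SFRP2 lie lower in DAPT, and the other genes lie higher in DAPT, on each probe.

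DKK3, the divergent Dickkopf protein, rose. Its brightest probe, A_87_P017561, had signals of 52616 in DMSO 1, 41842 in DMSO 2, 96680 in DAPT 1 and 87747 in DAPT 2, without saturation. Both DAPT arrays were above both DMSO arrays. The gene rose by 1.07 ± 0.13 (interval 0.73 to 1.41, adjusted p = 0.00792), which is 2.10-fold, with 0.99 on slide 1 and 1.15 on slide 2. Its other probe, A_87_P278373, rose by 1.06 ± 0.098 (adjusted p = 0.00404), with signals of 30520, 27525, 57960 and 54860. Without DAPT replicate 1 the call of DKK3 ended (adjusted p = 0.052).

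FRZB, a frizzled-related protein first known from cartilage, rose by less than 2-fold. A_87_P125283 read 13710 in DMSO 1, 10532 in DMSO 2, 18781 in DAPT 1 and 17629 in DAPT 2. The DAPT arrays were nearly equal and above both DMSO arrays. FRZB rose by 0.70 ± 0.14 (interval 0.33 to 1.06, adjusted p = 0.0275), which is 1.62-fold, with 0.57 on slide 1 and 0.82 on slide 2. All 5 probes of FRZB were called higher in DAPT, by 0.58 to 0.72, although their signals in DMSO 1 ranged from 856 to 13710. The call on the brightest probe ended without DMSO replicate 2 (adjusted p = 0.0618), without DAPT replicate 1 (adjusted p = 0.144) and without DAPT replicate 2 (adjusted p = 0.137).

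SFRP1, the close relative of SFRP2, was the gene whose probes gave unlike values. The brightest probe, A_87_P059491, is printed in 5 spots on each array and had mean signals of 1544 in DMSO 1, 1023 in DMSO 2, 2012 in DAPT 1 and 1641 in DAPT 2. The spots of an array agreed closely, with coefficients of variation of 8.34%, 5.63%, 4.36% and 1.49%. The DAPT arrays were above the DMSO arrays, but DMSO 1 lay near DAPT 2. The difference of 0.63 ± 0.21 (interval 0.079 to 1.18) had an adjusted p of 0.0962 and did not pass. It was 0.50 on slide 1 and 0.76 on slide 2, and with the slide as a block the adjusted p was 0.0161, a fit in which 39.9% of all features were called.

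The other SFRP1 probes, annotated to the same transcript, had larger differences. A_87_P037395 read 731 in DMSO 1, 419 in DMSO 2, 1754 in DAPT 1 and 1773 in DAPT 2. A_87_P173765 read 59.6, 40.6, 142 and 153. On both probes the DAPT arrays were far above the DMSO arrays. With every probe a feature, the first rose by 1.77 ± 0.25 (adjusted p = 0.0118) and the second by 1.68 ± 0.19 (adjusted p = 0.0063), and the second was at 1.05 with normexp background correction. The mean of the 3 probes gave 1.36 with an adjusted p of 0.0155. Whether SFRP1 is called therefore turned on the probe taken for the gene, and also on the slide block and the arrays used. Its sign was positive on all 3 probes. With groups that did not overlap, neither the block nor leaving out 1 array could change it.

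**Figure D2:**
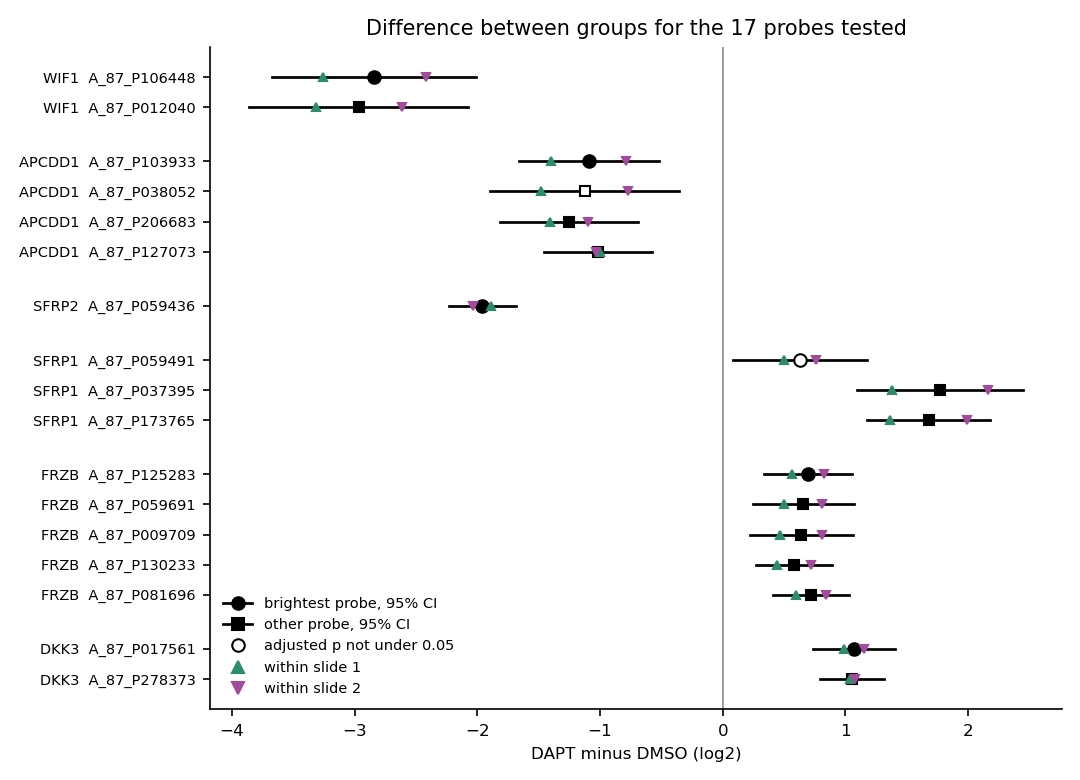
Log2 difference, DAPT minus DMSO (x axis), of the 17 probes tested, grouped by gene (y axis). Black marks with bars give the estimate and its 95% confidence interval, open marks had an adjusted p of 0.05 or more, and green and purple triangles give the difference within slide 1 and slide 2. Open marks are A_87_P038052 of APCDD1 and A_87_P059491 of SFRP1. Both slides gave 1 sign for each probe, which follows from groups that did not overlap on any of these probes.

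The unlike response of the SFRP1 probes was tested as the difference between each probe's log2 signal and that of the brightest probe of the gene, with limma over 6122 probe pairs of all named genes. This test was chosen after the values were seen. It called 0.964% of pairs and none of the 11 pairs of the 6 genes. For SFRP1 the differences exceeded that of the brightest probe by 1.14 ± 0.15 (adjusted p = 0.0722) for A_87_P037395 and by 1.05 ± 0.16 (adjusted p = 0.107) for A_87_P173765. With the slide as a block, where 3.89% of pairs were called, the adjusted p was 0.0512 and 0.0349. With normexp correction the excess was 1.00 (adjusted p = 0.0335) and 0.45 (adjusted p = 0.41), so the value of the dimmer probe depended on the background correction. Leaving out 1 array gave adjusted p from 0.008 to 0.19. For the other genes the excess lay between -0.16 and 0.077, each with an adjusted p of 1.00.

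**Figure D3:**
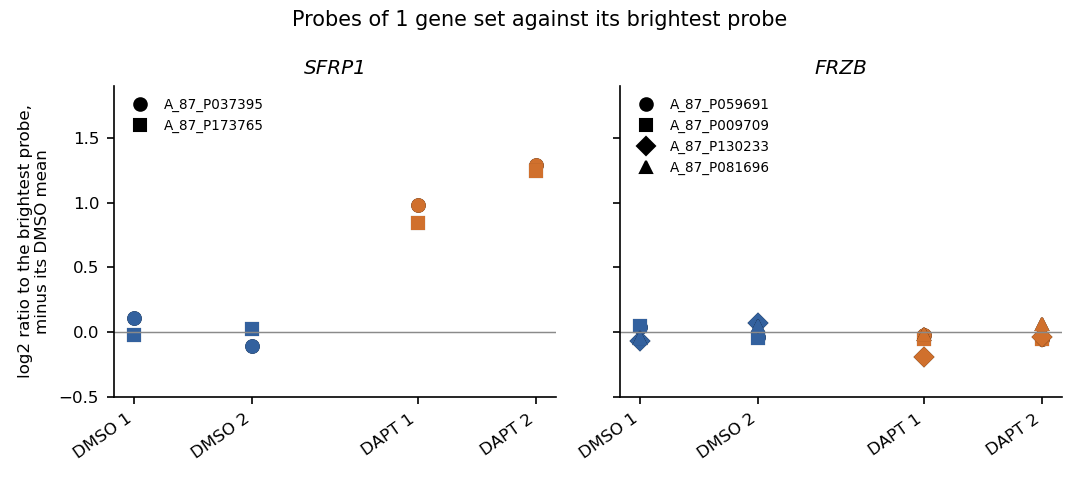
Log2 ratio of each further probe of SFRP1 and FRZB to the gene's brightest probe, minus its mean over the DMSO arrays (y axis), on the 4 arrays (x axis), blue for DMSO and orange for DAPT. Both SFRP1 probes lie above their DMSO values on both DAPT arrays, while the 4 FRZB probes stay near 0.

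Within the frizzled-related family, then, SFRP2 fell, FRZB rose and the 3 SFRP1 probes had positive differences of which 2 passed as single probes. The 95% interval of SFRP2 did not overlap those of FRZB or of SFRP1 on its brightest probe. The interval of FRZB lay within that of this SFRP1 probe. With every probe a feature, the intervals of the other SFRP1 probes were 1.09 to 2.45 (A_87_P037395) and 1.17 to 2.18 (A_87_P173765). Both lay above that of FRZB on its brightest probe, 0.34 to 1.05 in that fit. With the slide as a block, the adjusted p was 0.00116 for SFRP2, 0.00346 for DKK3 and 0.0123 for FRZB, so the calls of these 3 genes did not turn on the block.

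Other secreted inhibitors were thinly covered. Of 19 list entries, 3 were tested, and none passed in limma, with 1 higher and 0 lower at an unadjusted p under 0.05. At that threshold 1222 of the 5110 named genes were higher and 970 lower, the background for the lists below as well. By adjusted p, 12.4% of all features were called higher and 13.1% lower, the background for the called counts of those lists. All 3 tested inhibitors of this list are given here, also those outside the rule for named genes. IGFBP4, an IGF-binding protein that can also antagonise Wnt reception, was at 0.52 ± 0.14 (adjusted p = 0.0595) and was called higher with the slide as a block (adjusted p = 0.0144). DRAXIN, an axon guidance protein that binds LRP, was at 0.20 ± 0.12, and CER1, a Wnt and BMP antagonist of early embryos, at -0.26 ± 0.43. SOSTDC1 was not well above background on any array. No probe matched a name of the R-spondin and LGR axis, which enhances Wnt reception.

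The ligands moved in both directions. Of 15 tested genes for Wnts and their secretion, 6 rose and 4 fell, with a median of -0.098. WNT7A rose by 3.36 ± 0.13 (adjusted p = 0.0011) and WNT7B, its close relative, by 3.25 ± 0.14 (adjusted p = 0.00123). WNT7A was at -5.25 and -5.52 in DMSO and at -2.02 and -2.03 in DAPT, so the groups were far apart. With normexp correction the differences of these dim ligands were smaller, 2.17 for WNT7A and 2.42 for WNT7B, and both were called under all 15 alternatives. WNT5B rose by 1.82 ± 0.15. WNT5A and WNT10A, named here after their values were seen, rose by 1.00 ± 0.11 (adjusted p = 0.00667) and 0.69 ± 0.10 (adjusted p = 0.0132). Their calls were lost in 2 and 3 alternatives. WNT2B, known from the chick ciliary margin and named here after its values were seen, rose by 1.11 ± 0.27 with an adjusted p of 0.0499. It was at 0.70 with normexp correction, and its call was lost in 5 alternatives, among them quantile normalization (adjusted p = 0.0577), no filter (0.0764), and either DAPT array left out (0.119 and 0.164). WNT6 fell by 2.00 ± 0.099 (adjusted p = 0.00145), WNT4 by 1.40 ± 0.20, and WLS, the carrier that brings Wnts to the cell surface, by 1.12 ± 0.24. WNT11, named here after its values were seen, also fell, by 0.75 ± 0.17 (adjusted p = 0.0427). The call of WNT11 was lost in 9 alternatives, among them normexp correction (-0.30, adjusted p = 0.089). The call of WNT4 was lost without DAPT replicate 1 (adjusted p = 0.053), and that of WLS with no filter (0.0576) and without either DAPT array (0.117 and 0.113). With the slide as a block, a fit that called 39.9% of all features, 7 ligand genes were called higher and 5 lower. It added WNT3A (0.70, adjusted p = 0.00956) and WNT11B (-0.57, adjusted p = 0.0282). WNT3A was well above background on 2 DAPT arrays and 0 DMSO arrays, so it passed the filter through DAPT alone. Its groups overlapped, its adjusted p without the block was 0.235, and with normexp correction it was at 0.11. WNT3 had the smallest difference, -0.098 ± 0.23.

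Receptors had lower values more often than higher ones. Among the 5110 named genes tested, 1222 were higher and 970 lower at an unadjusted p under 0.05. Of 12 receptors tested, 4 fell and none rose (7 lower and 1 higher at an unadjusted p under 0.05), with a median of -0.43. The genes that fell were FZD2 by 0.93 ± 0.21, FZD10 by 0.87 ± 0.14, FZD6 by 0.70 ± 0.12 and the co-receptor LRP5 by 0.46 ± 0.11. FZD10 was dim, well above background on 2 DMSO arrays and 1 DAPT array, and with normexp correction its difference was 0.016. Its call was lost with a trended robust prior (adjusted p = 0.068). It was not tested where all 4 arrays had to be well above background. Of the 8 FZD6 probes, 4 were called lower. FZD3, named here after its values were seen, was at -0.53 on its brightest probe and counts among the 7 lower. Its 5 probes ranged from -0.74 to 0.79, so they differed in sign. ROR2, a receptor of non-canonical Wnts, was at 0.046 ± 0.11. Of the 15 alternatives, LRP5 lost its call in 9, median scaling (adjusted p = 0.0564) and normexp correction (0.0519) among them, FZD2 in 6 and FZD6 in 5. Without DAPT replicate 1 the adjusted p was 0.26 for LRP5, 0.158 for FZD2 and 0.14 for FZD6, and without DAPT replicate 2 it was 0.228, 0.112 and 0.0901. Without DMSO replicate 2 it was 0.0703, 0.0607 and 0.0637, and LRP5 was also lost without DMSO replicate 1 (0.115). FZD10 was lost without DMSO replicate 1 (0.055), DMSO replicate 2 (0.058) or DAPT replicate 2 (0.0962). With the slide as a block, 7 receptors were called lower and 1 higher, in a fit that called 39.9% of all features.

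Of 14 genes that transmit the signal inside the cell, 2 rose and none fell (3 higher and 2 lower at an unadjusted p under 0.05). Over all features, 12.4% were called higher and 13.1% lower. The genes that rose were CSNK1G1, a casein kinase that acts on LRP, by 0.53 ± 0.10, and PYGO1, a cofactor of β-catenin, by 0.46 ± 0.11. Both calls were lost with any 1 array left out, with adjusted p from 0.0589 to 0.188 for CSNK1G1 and from 0.102 to 0.286 for PYGO1. With the slide as a block, which called 39.9% of all features, 2 genes were called higher and 2 lower. The latter were β-catenin itself, CTNNB1 (-0.32, adjusted p = 0.0449), and the TCF factor TCF7L2 (-0.38, adjusted p = 0.0303). TLE4, a co-repressor, had the smallest difference at 0.010 ± 0.12.

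Of 15 genes known as Wnt targets in some tissue, 3 rose and 3 fell, with a median of 0.072. MSX1 rose by 2.56 ± 0.12, SP5 by 0.94 ± 0.099 and LEF1 by 0.69 ± 0.14. The 3 probes of LEF1 ranged from 0.58 to 2.24, of which 2 were called, and LEF1 lost its call in 7 alternatives, among them no filter (adjusted p = 0.0532), the mean of its probes (0.058) and each array left out (0.0686 to 0.177). MSX2 fell by 1.67 ± 0.15, the adhesion receptor CD44 by 1.21 ± 0.11 and the cyclin CCND1 by 0.97 ± 0.12. SP5 was lost without either DAPT array (adjusted p = 0.0501 and 0.054) and CCND1 without DAPT replicate 1 (0.0627). A slide block, which called 39.9% of all features, called 4 targets higher and 3 lower. It added CDX1 (0.35, adjusted p = 0.0389), whose groups overlapped and whose adjusted p without the block was 0.666. TNFRSF19 had the smallest difference, 0.072 ± 0.30. INVS, the only planar polarity gene tested, was at 0.19 ± 0.15. Over all these lists, 11 of 59 distinct genes rose and 11 fell, with a median of -0.011. With the slide as a block 15 rose and 17 fell. Of the 5110 named genes tested, 734 rose and 707 fell, and with the slide as a block 1240 rose and 979 fell.

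**Figure D4:**
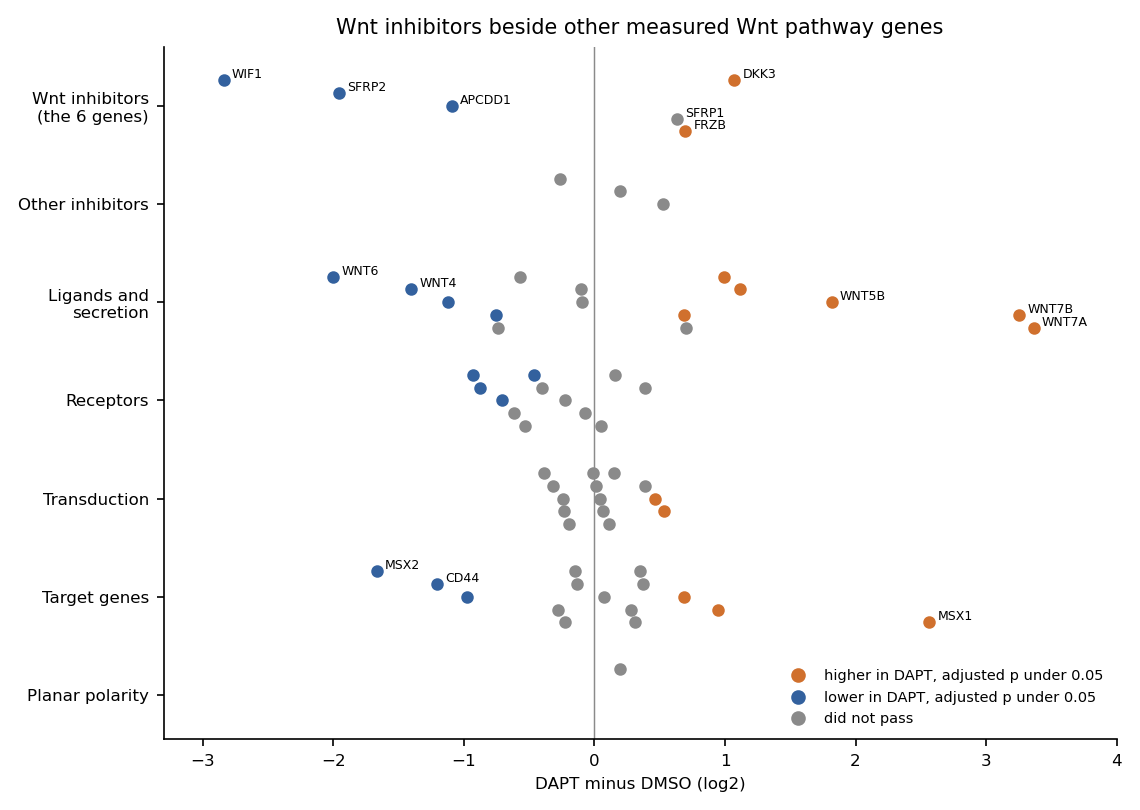
Log2 difference, DAPT minus DMSO (x axis), of the 6 Wnt inhibitors and of other measured genes of the Wnt pathway by role (rows), each point one gene on its brightest probe. Orange points passed as higher in DAPT, blue points as lower, and grey points did not pass; points are shifted vertically so that they can be told apart. Ligands spread from WNT6 at -2.00 to WNT7A at 3.36, and WIF1 at -2.84 lies lowest of all points shown.

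Genes with the most similar pattern over the 4 arrays were sought among 5109 other named genes, by the root mean square difference of log2 values centred on each gene's mean. SFRP2 was nearest to BCL11A, a transcription factor (0.040), and to the ligand WNT6 (0.054). WIF1 was nearest to MX1, an interferon-induced GTPase (0.091), and NTS, which encodes neurotensin (0.19). MX1 was dim in DAPT, at -6.84 and -6.91, and the distances were not computed with normexp correction. APCDD1 was nearest to PDE6C, the cone phosphodiesterase (0.053), and IL13RA2, a decoy interleukin receptor (0.057). DKK3 was nearest to PDK4, a kinase that inhibits pyruvate dehydrogenase (0.033), and CRYGS, a lens crystallin (0.036). FRZB was nearest to ARHGAP26 (0.022) and NTPCR (0.032), and SFRP1 to OGG1, a DNA repair enzyme (0.014), and KLHL14 (0.029). These distances rest on 4 arrays and are a description only.

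Markers of the neural retina and of neighbouring tissues moved in several directions beside these genes. Of 14 Müller glia genes, 5 fell (TIMP3 at -2.93 and AQP4 at -4.48) and 3 rose, which were RLBP1 at 1.91, CLU at 1.41 and CA2 at 1.20, named after their values were seen. AQP4 was well above background on 1 of the 2 DAPT arrays, and with normexp correction it was at -1.58. The summed signal of the list went from 421 and 412 on the DMSO arrays to 343 and 358 on the DAPT arrays, but without TIMP3 from 236 and 221 up to 316 and 334. Of 11 progenitor genes, 3 rose (among them LHX2 by 1.03) and CCND1 fell, with sums of 54.4 and 47.6 against 59.5 and 58.7, and without PAX6 of 41.7 and 32.6 against 39.7 and 37.7. Of 14 neuron genes, 9 fell (RBPMS2 at -2.27 and SCG3 at -2.20) and 3 rose. Differences in this list ranged from -2.27 to 2.12, with a median of -1.64. The sums were 112 and 89.6 against 57.8 and 55.7, and without SCG3 61.3 and 47.7 against 47.9 and 45.6. Of 10 pigment epithelium genes, 7 rose (DCT by 3.35 and TYR by 3.25), with sums of 12.0 and 9.49 against 14.5 and 15.0, and without OTX2 of 0.814 and 0.679 against 2.11 and 2.07. TYR was well above background on 1 of the 2 DMSO arrays. Of 9 ciliary margin genes, 3 fell (COL9A1 at -3.99 and WFDC1 at -2.85) and 3 rose, with MSX1 at 2.56, and the median of the list was 0.61. A slide block, which called 39.9% of all features, called 5 of them higher and 3 lower. The sums were 139 and 149 against 118 and 122, and without TGFB2 59.9 and 71.2 against 25.5 and 27.1. Of 4 vascular and microglial genes, FLT1 fell by 1.62, with sums of 2.35 and 1.14 against 0.878 and 0.935, and without KDR of 0.141 and 0.140 against 0.127 and 0.129. With normexp correction TYR was at 1.06, DCT at 2.57, FLT1 at -0.25, OPN1MSW at -1.87, RBPMS2 at -1.54, BFSP1 at 8.39 and CRYBB1 at 7.04. The genes left out of sums were those that moved the ratio of the groups most, chosen after seeing the data. The markers HES5, GNAT1, CDH5 and SPI1 were not well above background on any array, and the part of these cell types in the differences of the Wnt inhibitors was not tested.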

How the data were processed

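Per the labels' protocols, 100 ng RNA of each of the 4 cultures was labelled with Cy3 for 1-colour Agilent arrays of chicken probes. Per the file headers, Agilent Feature Extraction 11.5.1.1 made the deposited intensities, of which the processed signal, linear and with background subtracted, was used. The authors' deposited value table is the same signal times 1 factor per array (1.41 to 1.51), and its medians are 380 (DMSO 1), 359 (DMSO 2), 350 (DAPT 1) and 336 (DAPT 2). It is linear and not centred by gene, and the origin of the factors is not given in the sources used here.

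Control spots and spots flagged as outliers (4 to 8 per array) were left out, each array's 75th percentile (1412 to 1604) was subtracted on the log2 scale, and spots of a probe were averaged. A named gene was represented by its brightest probe, and unnamed probes stayed single features. A feature was kept if at least 1 group had both its arrays well above background. Names came from a RefSeq gene table of the assembly GRCg7b, which named 11935 of 43603 probes; 14692 probes with only an Ensembl transcript name stayed unnamed. The array's annotation refers to an older build, so no coordinates are given.

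Differences were tested with limma 3.58.1 in R 4.3.3 (lmFit and eBayes, prior degrees of freedom 2.39), with Benjamini-Hochberg adjustment over all features. Groups and replicate numbers came from the sample titles, which name no pairs, and the reported fit has no block. By the file headers, same-numbered arrays shared a slide and scan, and deviations from the group mean of same-numbered arrays correlated at 0.58 over features. The fit with a slide block is therefore given for the 6 inhibitors, and for the pathway lists by its counts or the genes it adds. The test was run on simulated data with errors independent between arrays. That setting lacks the correlation of same-numbered arrays, so it cannot show how the fit without a block behaves here.

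The genes and lists were chosen with earlier results of these data known. Named genes were all 6 Wnt inhibitors with every probe, in each pathway list up to 6 called genes with the largest difference and the gene with the smallest, in each marker list up to 2 called genes, and the 2 genes nearest in pattern to each inhibitor. One gene that this rule took is not reported here. The 15 alternatives were other background corrections, scalings, filters, treatments of probes, priors, a block, each array left out and a 2-fold rule. The comparison between probes of 1 gene was added after seeing the data.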

Additional observations from a re-analysis of the deposited data

How the results depend on the processing

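Of the 6 Wnt inhibitors, WIF1 (-3.28 to -2.40) and SFRP2 (-2.01 to -1.79) kept their call under all 15 alternatives. APCDD1 (-1.37 to -0.81), DKK3 (0.90 to 1.18) and FRZB (0.56 to 0.83) lost it only as given above, and FRZB also under the 2-fold rule. No inhibitor changed sign under any alternative, but many alternatives could not change it. As the groups overlapped for none of the 6 genes, leaving out 1 array could not turn a sign. The block, the prior and the 2-fold rule left each difference as it was. SFRP1 (0.39 to 1.68) was called with every probe a feature, the mean of its probes, the slide block, and without DMSO replicate 1 (0.87, adjusted p = 0.0424). The inhibitors called higher numbered 1 with the 2-fold rule and 0 to 3 with 1 array left out, those called lower 2 to 3. A group left with 1 array is assumed to vary like the other. Pathway genes called lower numbered 7 with no filter, 17 with the replicate block (the slide), 5 with the 2-fold rule and 5 to 9 with 1 array left out, and those called higher 5 with the 2-fold rule and 4 to 8 with 1 array left out. Features called higher numbered 6862 with the replicate block, 1569 with the 2-fold rule and 1346 to 3079 with 1 array left out, and those called lower 2292 with the 2-fold rule and 2034 to 3360 with 1 array left out. FZD10 reversed to 0.016 with normexp correction. The causes were not tested. Median scaling moved the median of all features to 0.11. The authors' values, scaled by the percentile, equal the reported ones by construction. Signal near background limits the dim probes of APCDD1 and SFRP1.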
